A study of Mus musculus with 20 samples.

Results

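The interaction of the Glb1 and Neu3 knockouts was measured in mouse brain over all 20 of the series' 20 libraries. On the log2 scale it subtracts what Neu3 loss does with Glb1 intact (Neu3KO minus WT) from what it does with Glb1 lost (DKO minus Glb1KO). The contrast asks whether loss of Neu3 changes a gene by the same factor in brains that lack Glb1 as in brains that have it. A value of 0 means that the level in joint loss equals the product of the single folds, and a positive value means that the level in joint loss is above that product. The libraries fell by genotype label into 5 with knockout of both genes (DKO), 5 with knockout of Glb1 (Glb1KO), 5 with knockout of Neu3 (Neu3KO) and 5 wild type controls (WT). Each was polyadenylated RNA from a single hemisphere, sequenced in bulk. The labels name the Jackson Laboratory as the source of healthy mice and give no treatment. Alleles, strain and age are not stated in the sources used here. Each library carried its own identifier, but nothing stated that the libraries came from separate animals, so the p-values measure the spread between these libraries.

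Gangliosides are sphingolipids that carry sialic acid and are abundant in neuronal membranes. GM1 is broken down in lysosomes, where the beta-galactosidase coded by Glb1 removes its terminal galactose, and inherited loss of the enzyme causes the storage disease GM1 gangliosidosis. The sialidase made from Neu3 sits mainly at the plasma membrane and cuts sialic acid from gangliosides. In mice, sialidases can turn stored gangliosides into their asialo forms, which opens a further route of breakdown. Stored lipid in brain is known to go along with activated microglia, the resident macrophages, and with reactive astrocytes.

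Total counts ran from 15162311 to 25145806 per library. By the first letter of their identifiers, 2 DKO, 2 Glb1KO, 1 Neu3KO and all 5 WT libraries were E, 3 DKO and 4 Neu3KO libraries were W, and 3 Glb1KO libraries were L. The sources do not explain the letters, which are unevenly spread over the genotypes, so results are also given with the letter as a term of the fit and among the 10 libraries with E alone. Because L occurs in Glb1KO alone, the Glb1KO level in the fit with the letter rests on its 2 E libraries. A call lost in that fit can therefore also reflect fewer libraries. WT replicate 1 had 2.451% of its counts on mitochondrial genes, against 3.263% to 4.863% in the other libraries. Glb1 itself was at 4.0 ± 1.07 CPM in DKO and 20.5 ± 1.34 CPM in Neu3KO (SD, n = 5 each), or 19.5% of the Neu3KO level, with an exact two-sided permutation p = 0.00794, the smallest that 5 against 5 can give. It was at 3.38 ± 0.903 CPM in Glb1KO and 20.2 ± 1.32 CPM in WT (SD, n = 5 each), or 16.7%, with the same exact permutation p = 0.00794. Neu3 was at 2.98 ± 0.826 CPM in DKO and 4.06 ± 0.621 CPM in Glb1KO (SD, n = 5 each, exact permutation p = 0.0635), and at 2.86 ± 0.408 CPM in Neu3KO and 3.85 ± 1.22 CPM in WT (SD, n = 5 each, exact permutation p = 0.151). The counts therefore separated the Glb1 labels, and did not separate the Neu3 labels beyond the spread. Neither gene had a called interaction, at log2 0.22 for Glb1 (adjusted p = 0.64) and -0.02 for Neu3 (adjusted p = 0.984).

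Joint loss departed from the product of the single folds in 1255 of the 18336 genes tested, or 6.84% (edgeR's quasi-likelihood test, Benjamini-Hochberg adjusted p under 0.05, no fold minimum). Of these, 727 genes were called higher, or 3.96% of those tested, and 528 were called lower, or 2.88%. The higher calls were the larger ones: 454 were at least 1.5-fold and 64 at least 4-fold, against 107 and 6 of the lower calls. By this log2 test 57.9% of the calls were higher; with the interaction taken on the linear CPM scale instead, 69.9% of 1127 calls were. Genes of activated microglia, complement, lysosomal proteases and reactive astrocytes stood among the higher calls, and pan-neuronal, synaptic and ion channel genes among the lower ones. The median log2 interaction was 0.743 over the higher calls and -0.371 over the lower calls, against 0.000758 over all genes tested. In bulk RNA, fewer cells of a type and less RNA per cell cannot be told apart, and the same holds for more of either.

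Over the 727 genes called higher, the median log2 difference was 0.705 for DKO minus Glb1KO and -0.0407 for Neu3KO minus WT. Over the 528 called lower it was -0.309 for DKO minus Glb1KO and 0.0587 for Neu3KO minus WT. The Neu3KO minus WT difference was within 0.5 of 0 on the log2 scale for 94.6% of the higher calls and 97.0% of the lower calls, near the 95.2% of all genes tested. Shapes were set by sign alone, with no minimum difference from WT. In 692 calls (larger rises), or 55.1%, joint loss was above both WT and the product. In 500 (larger falls), or 39.8%, it was below both. Some of these lay near WT: Mef2c, a larger fall, had a DKO minus WT log2 difference of -0.00357. Its single knockouts were above WT, at 0.08 for Glb1KO and 0.17 for Neu3KO. In the remaining calls joint loss was above the product but not above WT in 35 (2.79%), and below the product but not below WT in 28 (2.23%). Among all genes tested the same 4 shapes took 32.9%, 33.3%, 17.2% and 16.6%. All 5 DKO libraries lay above the other 15 in 863 genes, or 4.71% of those tested, and below them in 496, or 2.71%. Among the calls this held for 524 of the higher and 256 of the lower genes.

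**Figure D1:**
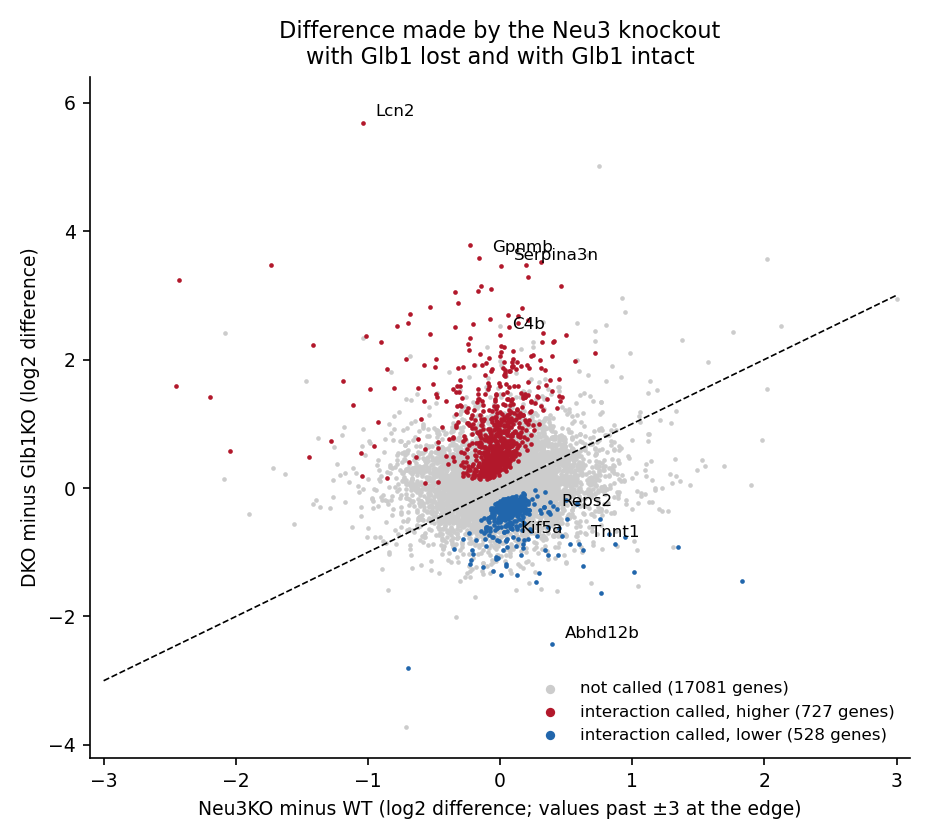
Each point is a gene tested, with the Neu3KO minus WT log2 difference on the horizontal axis and the DKO minus Glb1KO log2 difference on the vertical axis; the dashed line is where both are equal and the interaction is 0. The 727 genes called higher (red) form a plume that rises above the line near a Neu3KO minus WT difference of 0, and the 528 called lower (blue) lie in a flatter band below it.

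Taken library by library, every DKO library was shifted in the direction of the calls. Over the genes called higher, the median log2 difference from the WT mean was 0.68, 0.709, 0.765, 0.698 and 0.776 in the DKO libraries, against 0.0444 to 0.097 in Glb1KO, -0.0615 to -0.018 in Neu3KO and -0.0427 to 0.0328 in WT. Over the genes called lower it was -0.215, -0.216, -0.323, -0.349 and -0.355 in DKO, against 0.00211 to 0.0385 in Glb1KO, 0.0021 to 0.119 in Neu3KO and -0.0304 to 0.0311 in WT. The DKO libraries did not overlap with the others in either set, which the choice of the genes by this contrast fixes. Within DKO, replicates 1 and 2, whose identifiers begin with E, lay closer to WT in the lower set than the 3 replicates with W. Among the 10 libraries with E, 183 genes were called, with 158 higher and 25 lower, and of the 1255 calls 1252 had the same sign there. The 10 libraries hold 1 Neu3KO sample, which that fit assumes to vary like the other groups. With the letter as a term, 1111 genes were called, of which 888 were among the 1255.

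**Figure D2:**
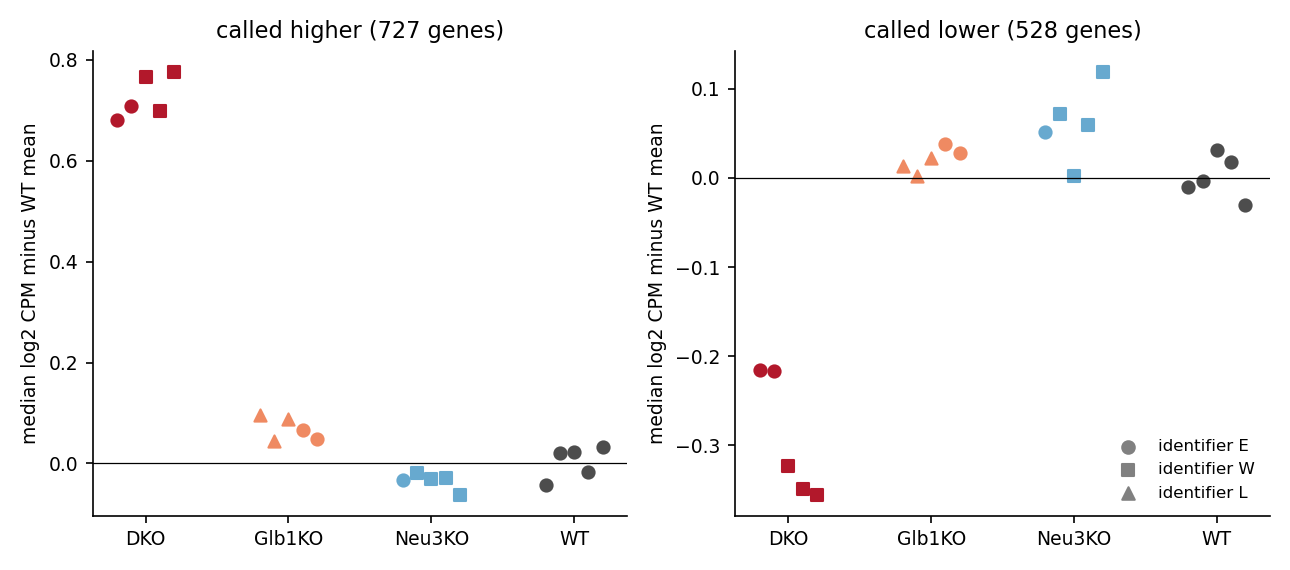
Each point is a library, at the median log2 difference from the WT mean over the genes called higher (left, 727 genes) or lower (right, 528 genes); colours are genotypes and symbols the first letter of the identifier. DKO libraries sit at 0.68 to 0.776 on the left and at -0.355 to -0.215 on the right, and the E libraries of DKO are the 2 nearest to 0 on the right.

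The size of a call followed the level of the gene. Of genes with a mean under 1 CPM, 1.43% were called, with a median absolute log2 interaction of 2.58 among the calls and a median SE of 0.608 among the genes tested. At 100 CPM or more 15% were called, with a median absolute interaction of 0.332 and a median SE of 0.0788. The direction differed too, with 227 higher and 47 lower calls between 1 and 10 CPM, and 83 higher and 280 lower calls at 100 CPM or more. The test of an interaction is less precise than that of a pair of groups: the median SE was 0.156, against 0.11 for DKO minus Glb1KO. Of protein-coding genes 8.01% were called, and of long intergenic RNAs 2.35%.

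Among lists with 10 or more tested genes, the one most often called was that of activated microglia. Of the 25 disease-associated microglia genes, which activated microglia switch on around stored or aggregated material, 19 were called higher, against 3.96% of all genes tested, and 0 lower, with a median log2 interaction of 1.25. Gpnmb, a membrane glycoprotein of macrophages that is raised in many storage diseases, had 463, 419, 524, 441 and 504 CPM in DKO, against 39.5, 42.3, 45.1, 44.1 and 25.5 CPM in Glb1KO, 3.77, 2.55, 3.01, 3.39 and 3.24 CPM in Neu3KO and 3.42, 2.72, 4.11, 3.4 and 4.25 CPM in WT. Every DKO library was above every other library, and Glb1KO was already above Neu3KO and WT, which overlapped. The product of the single folds came to 35 CPM, so that the interaction was log2 3.73 (SE 0.25, adjusted p = 2.15e-09). Trem2, the lipid-sensing receptor of microglia, had 53.7, 59.6, 57.1, 50.9 and 56.1 CPM in DKO, against 22.3, 25.8, 21.4, 21.1 and 17.2 CPM in Glb1KO, 10.3, 13.4, 10.6, 8.75 and 8.71 CPM in Neu3KO and 7.79, 7.62, 7.68, 7.9 and 7.02 CPM in WT. Here the Neu3KO libraries also lay above WT without overlap, so the product was 29.3 CPM and the interaction log2 0.91 (SE 0.14, adjusted p = 4.82e-05). Apoe, the lipid carrier of glia, averaged 2889 ± 358 CPM in DKO, 1412 ± 96.8 CPM in Glb1KO, 1224 ± 91.2 CPM in Neu3KO and 1178 ± 136 CPM in WT (SD, n = 5 each), for an interaction of log2 0.98 (SE 0.12). Cd68, a lysosomal glycoprotein of phagocytes, averaged 69.7 ± 4.21 CPM in DKO, against 16.6 ± 2.04 CPM in Glb1KO, 5.67 ± 0.821 CPM in Neu3KO and 4.72 ± 0.728 CPM in WT (SD, n = 5 each), and its interaction was log2 1.81 (SE 0.15). Lgals3, a galectin that marks damaged lysosomes, had an interaction of log2 3.28 (SE 0.43, adjusted p = 1.01e-05). With the identifier letter as a term, 19 of the 25 genes were called higher, and among the E libraries 14.

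Of 16 homeostatic microglia genes, those of resting microglia, 6 were called higher, 1 lower and 9 not called. Of all genes tested 3.96% were called higher and 2.88% lower. The median log2 interaction of the list was 0.47. Trem2, among the 6, is also on the list of disease-associated microglia. Csf1r, the receptor on which microglia depend for survival, was called at log2 0.39 (SE 0.09, adjusted p = 0.00454), and with the letter as a term it was at 0.34 (adjusted p = 0.0508). Irf8, a transcription factor of microglia, was called at log2 1.03 (SE 0.21). Mef2c, a transcription factor shared with neurons, was the gene called lower, at log2 -0.26 (adjusted p = 0.0371), a call that was lost in 12 of the 20 fits that left out a library and with the letter as a term (adjusted p = 0.0927). The summed level of the microglial markers Cx3cr1, P2ry12, Tmem119 and Csf1r was 179 to 246 CPM in DKO, 159 to 164 CPM in Glb1KO, 149 to 171 CPM in Neu3KO and 126 to 156 CPM in WT. Cx3cr1 and Csf1r belong to this sum and were themselves called higher, so it is not a separate measure. Its part in the results on microglial genes was not tested.

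Receptors of phagocytes followed the same pattern. Of 20 phagocytic and inhibitory immune receptors tested, 12 were called higher and 0 lower, with a median log2 interaction of 1.22. Fcgr2b, the inhibitory Fc receptor, had 43.8, 37.7, 46.9, 39 and 47 CPM in DKO, against 7.53, 7.26, 7.27, 7.37 and 6.64 CPM in Glb1KO, 2.17, 2.65, 2.36, 2.98 and 3.82 CPM in Neu3KO and 2.37, 1.96, 2.26, 2.37 and 3.57 CPM in WT. All DKO libraries were above the rest, and the interaction was log2 2.44 (SE 0.2, adjusted p = 1.24e-10). Cd84, a self-binding receptor of the SLAM family, was called at log2 2.06 (SE 0.2), Fcer1g, the signalling chain of Fc receptors, at 1.45 (SE 0.17) and Axl, a receptor for dying cells, at 0.63 (SE 0.09). Mertk, a relative of Axl, was not called, at log2 0.16 (SE 0.14, adjusted p = 0.626). Lilr4b, an inhibitory receptor, rested on few reads outside DKO, with 866 over the DKO libraries, 71 over Glb1KO, 12 over Neu3KO and 9 over WT. Its call (log2 3.22, SE 0.92, adjusted p = 0.0284) was lost without WT replicate 2, 3 or 5, without Neu3KO replicate 2, and with the letter as a term (adjusted p = 0.0617), and reads could be shared with a near-identical copy. Of the 20 receptors 9 were called with the letter as a term, and 3 of 23 among the E libraries.

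Of 15 Toll-like receptors and their co-receptors, sensors of microbial and endogenous ligands, 7 were called higher and 0 lower. Tlr2, which binds lipoproteins, averaged 11.8 ± 1.34 CPM in DKO, 2.7 ± 0.729 CPM in Glb1KO, 1.48 ± 0.392 CPM in Neu3KO and 1.4 ± 0.607 CPM in WT (SD, n = 5 each), for log2 2.03 (SE 0.32, adjusted p = 5.39e-05). Cd180, a relative of Toll-like receptors, was called at log2 1.75 (SE 0.27), and Tlr13, a sensor of bacterial ribosomal RNA, at 1.51 (SE 0.28). Tlr3, the sensor of double-stranded RNA, was called at a smaller 0.75 (SE 0.14), and its Glb1KO level was below WT (log2 -0.12) where that of Tlr2 was above (log2 0.96). Among the E libraries 2 of the 15 were called.

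Complement, the opsonin cascade that tags material for phagocytosis, had 8 genes called higher and 0 lower of 14. C4b, which is cleaved to tag surfaces for C3, had the smallest p of all genes tested: 461, 485, 492, 449 and 485 CPM in DKO, against 94.4, 88.6, 96.1, 91.5 and 83.9 CPM in Glb1KO, 32.4, 30.7, 41.4, 34.5 and 32.8 CPM in Neu3KO and 32.9, 33.6, 31.3, 36.5 and 37.3 CPM in WT. The DKO libraries were all above Glb1KO, Glb1KO was above the remaining 10, and Neu3KO and WT overlapped. The product of the single folds was 91 CPM, and the interaction was log2 2.38 (SE 0.09, adjusted p = 7.81e-20), though reads of C4b could be shared with its copy C4a. C3, the central component, had 29.9, 23, 21.2, 23 and 27.4 CPM in DKO, against 3.91, 2.16, 2.49, 2.12 and 2.11 CPM in Glb1KO, 2.12, 1.35, 1.42, 0.882 and 1.53 CPM in Neu3KO and 0.843, 1.42, 1.97, 0.79 and 1.47 CPM in WT, for log2 3.06 (SE 0.31, adjusted p = 1.47e-08). C1qa, a chain of the initiator C1q, was called at log2 1.22 (SE 0.11) and Itgb2, a chain of the complement receptors, at 1.72 (SE 0.17). The count was 8 of 14 with the letter as a term and among the E libraries as well. Outside this list, Mpeg1, the pore-forming perforin-2 of macrophages, followed C4b and Grn in order of p, with 245 ± 17.5 CPM in DKO, 62.6 ± 4.93 CPM in Glb1KO, 22.6 ± 1.65 CPM in Neu3KO and 20.6 ± 2.35 CPM in WT (SD, n = 5 each) and an interaction of log2 1.84 (SE 0.1).

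**Figure D3:**
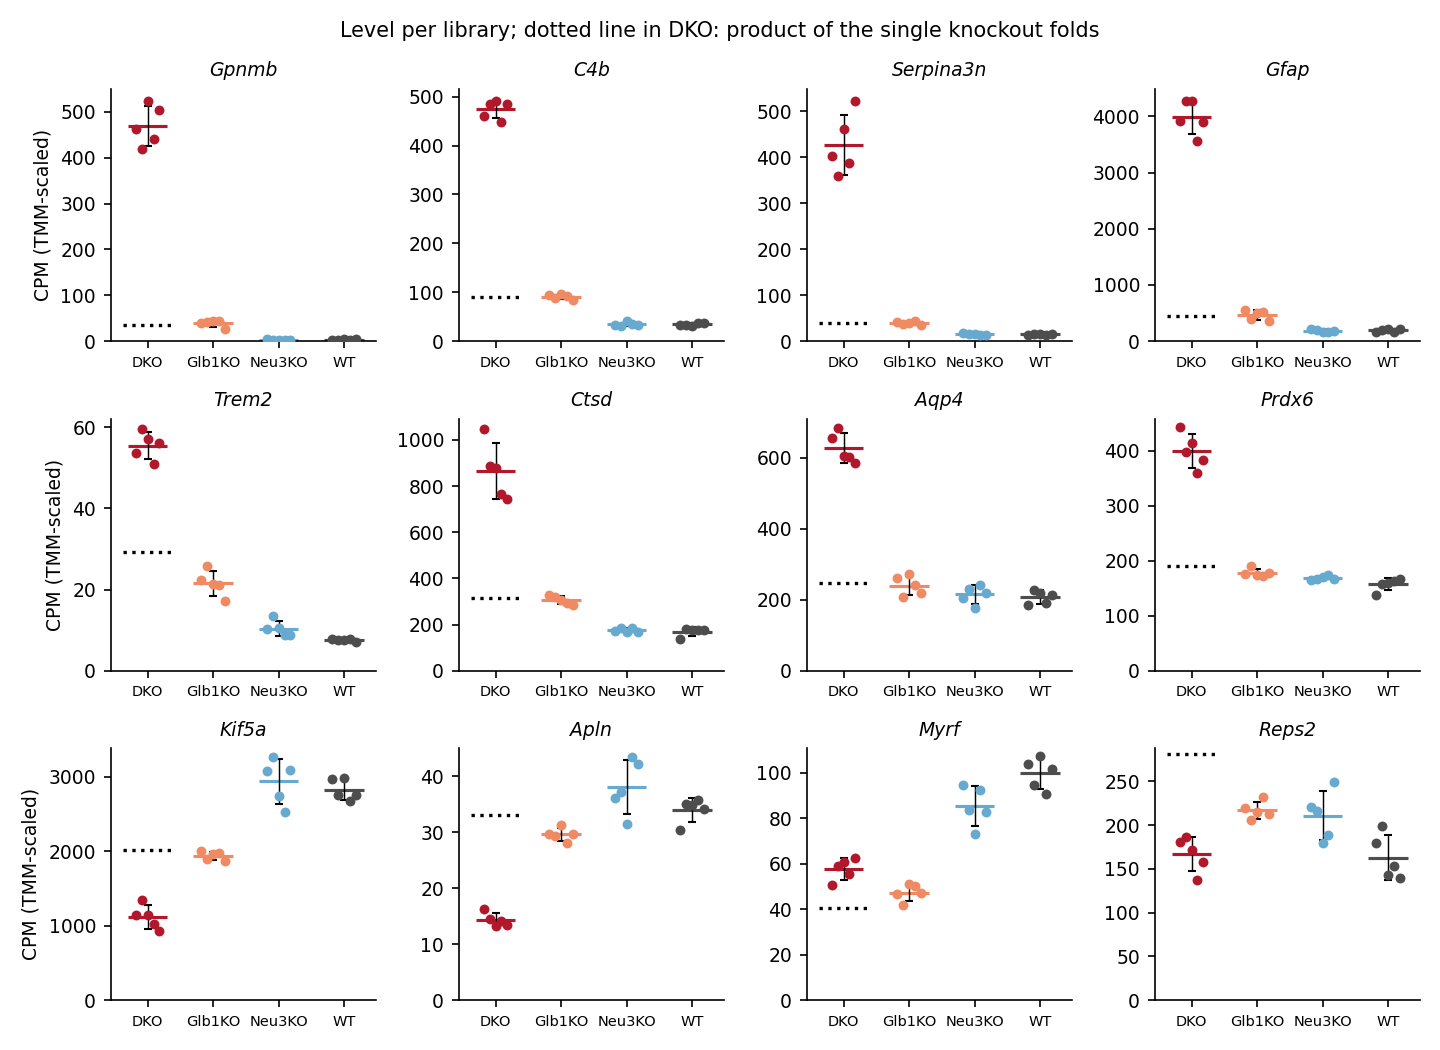
Levels of 12 genes in every library, in TMM-scaled CPM on a linear axis from 0, with the mean and SD per genotype (n = 5) and, as a dotted line over DKO, the product of the single knockout folds. For Gpnmb, C4b, Serpina3n, Gfap, Trem2, Ctsd, Aqp4 and Prdx6 every DKO library is above the dotted line; for Kif5a, Apln and Reps2 every DKO library is below it; for Myrf DKO is above it and below WT.

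Of 14 cytokines and chemokines 4 were called higher and 1 lower, against 3.96% and 2.88% of all genes tested. Tgfb1, a growth factor called higher and named after its value was seen, was at log2 0.55. Csf1, a growth factor for microglia and ligand of Csf1r, averaged 46.5 ± 3.9 CPM in DKO, 25.1 ± 1.55 CPM in Glb1KO, 23.4 ± 2.85 CPM in Neu3KO and 26 ± 1.72 CPM in WT (SD, n = 5 each), so that it stood above the others in DKO alone (log2 1.03, SE 0.11, adjusted p = 3.59e-08). Cx3cl1, the neuronal ligand that restrains microglia, was called lower, with 412 ± 51.9 CPM in DKO, 555 ± 58.5 CPM in Glb1KO, 613 ± 82.4 CPM in Neu3KO and 587 ± 16.7 CPM in WT (SD, n = 5 each) and log2 -0.49 (SE 0.12, adjusted p = 0.0154). The chemokines Ccl2 and Ccl4, which draw monocytes, were called on few reads. Ccl2 had 111 reads over the DKO libraries, 9 over Glb1KO, 4 over Neu3KO and 14 over WT. Ccl4 had 110 reads over DKO, 35 over Glb1KO, 1 over Neu3KO and 8 over WT, so that the fitted sizes of these 2 interactions depend on the handling of counts near 0. Their calls were lost on the linear CPM scale (adjusted p = 0.0628 for Ccl2 and 0.103 for Ccl4) and among the E libraries, and DESeq2 gave neither an adjusted p. The list had 3 called higher and 1 lower with the letter as a term, and 2 higher of 17 among the E libraries.

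Of 16 antigen presentation genes 7 were called higher, among them class I genes, and 0 lower. Of 24 type I interferon response genes 2 were called higher and 0 lower, against 3.96% and 2.88% of all genes tested. H2-K1, a class I heavy chain, averaged 81.5 ± 4.22 CPM in DKO, 36 ± 2.81 CPM in Glb1KO, 27.1 ± 2.59 CPM in Neu3KO and 25.7 ± 1.92 CPM in WT (SD, n = 5 each), for log2 1.1 (SE 0.1, adjusted p = 1.42e-09). H2-D1, a further heavy chain, was called at log2 1.01 (SE 0.11), B2m, the light chain, at 0.87 (SE 0.12), and Nlrc5, the transactivator of class I genes, at 1.89 (SE 0.3). Reads of the H2 genes can be shared among near-identical copies. Among interferon response genes, Bst2, which tethers viral particles, was called at log2 1.22 (SE 0.28, adjusted p = 0.00392). Irf9, the DNA-binding part of the interferon-stimulated complex, was called at 0.53 (adjusted p = 0.0248), and its call was lost without WT replicate 1, Neu3KO replicate 3 or DKO replicate 4 and with the letter as a term (adjusted p = 0.113). The count of 2 became 1 without each of those 3 libraries and 4 without Glb1KO replicate 2 or DKO replicate 5. Mx1, an antiviral GTPase, was not called, at log2 1.95 (SE 0.7, adjusted p = 0.0969). The median over the 24 genes was 0.38. Among the E libraries 0 of the 24 and 3 of the 16 antigen presentation genes were called, and with the letter as a term 2 and 7.

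The upstream bases of B2m and Bst2 are shown because both held the interferon-type motif, GAAA, any 2 bases and GAAA on either strand. The sequences are RefSeq's, for GRCm38.p6, and give the 150 bases before the start of transcription, with motif matches in capitals.
B2m (chr2:122147537-122147686, plus strand): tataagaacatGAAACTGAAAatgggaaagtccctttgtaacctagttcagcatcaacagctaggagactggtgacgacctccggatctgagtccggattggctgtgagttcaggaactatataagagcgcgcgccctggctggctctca
Bst2 (chr8:71537473-71537622, minus strand): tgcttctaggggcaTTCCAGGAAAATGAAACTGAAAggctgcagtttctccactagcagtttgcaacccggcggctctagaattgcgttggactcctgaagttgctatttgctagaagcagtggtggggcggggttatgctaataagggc
In Bst2 the motif overlaps itself and a STAT motif, TTCNNNGAA. Within 250 upstream bases, 4.89% of the 552 genes called higher and matched to the promoter table held the interferon-type motif, against 2.14% of the 374 matched genes called lower, 3.09% of the 11674 matched protein-coding genes tested and 3.46% of the 27025 genes in the table. A match describes letters and is not a binding site.

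Lysosomal genes, which code for the compartment where GM1 is degraded, were called higher in part. Of 36 lysosomal hydrolases and their helpers 17 were called higher and 0 lower, with a median log2 interaction of 0.34. Man2b1, the lysosomal alpha-mannosidase, was called at log2 0.75 (SE 0.09). With the letter as a term 16 of the 36 were called, and among the E libraries 8 of 37. Of 15 cathepsins and cystatins, the proteases of lysosomes and their inhibitors, 10 were called higher and 0 lower, with a median of 0.75. Ctsd, an aspartic protease, had 1047, 887, 878, 765 and 742 CPM in DKO, against 328, 320.0, 307, 291 and 285 CPM in Glb1KO, 173, 183, 168, 183 and 169 CPM in Neu3KO and 136, 181, 177, 176 and 176 CPM in WT. The DKO and Glb1KO groups did not overlap with each other or with the rest, and the interaction was log2 1.45 (SE 0.11, adjusted p = 1.59e-09). Ctsb, a cysteine protease, averaged 1260.0 ± 68.9 CPM in DKO, 642 ± 27.6 CPM in Glb1KO, 527 ± 15 CPM in Neu3KO and 514 ± 26.3 CPM in WT (SD, n = 5 each), for log2 0.94 (SE 0.07, adjusted p = 4.37e-12). Ctsz and Ctsl, further cysteine proteases, were called at log2 1.32 (SE 0.11) and 0.96 (SE 0.1). Of these 15 genes 10 were called with the letter as a term, and 7 of 16 among the E libraries.

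Of 18 genes of sialidases and ganglioside breakdown, 8 were called higher and 0 lower. They included the enzymes that act after Glb1: Hexa, the subunit of the hexosaminidase that cleaves GM2, was called at log2 0.67 (SE 0.11, adjusted p = 0.000114), and Gm2a, the activator that presents GM2 to it, at 0.4 (SE 0.08). Ctsa, the protective protein that holds beta-galactosidase and the sialidase Neu1 in a complex, averaged 182 ± 8.31 CPM in DKO, 110.1 ± 4.89 CPM in Glb1KO, 83.1 ± 3.13 CPM in Neu3KO and 82 ± 4.51 CPM in WT (SD, n = 5 each), for log2 0.7 (SE 0.07). Psap, the precursor of the saposins, was called at a small 0.28 (SE 0.06, adjusted p = 0.00259). The letter term left 8 of the 18 called, and the E libraries 3. The sialidase genes Neu1, Neu2 and Neu4, named after their values were seen, were not called, at log2 -0.04, -0.10 and 0.06. Ganglioside synthesis had 0 of 14 genes called in either direction by edgeR and 2 by DESeq2, with 3 at an unadjusted p under 0.05 and a median of -0.13. Ugcg, which makes glucosylceramide, the first step, was at log2 -0.2 (SE 0.07, adjusted p = 0.104), and St3gal2, a sialyltransferase, at -0.17 (SE 0.07, adjusted p = 0.134).

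Lysosomal membrane genes and the regulators of the MiT/TFE family had 10 of 19 called higher and 0 lower. Grn, the precursor of the lysosomal granulins, followed C4b in order of p, with 192, 199, 202, 171 and 208 CPM in DKO, against 73.3, 74.1, 73.6, 82 and 70 CPM in Glb1KO, 48, 45.9, 49.6, 48 and 47.9 CPM in Neu3KO and 47.7, 48.4, 51.4, 49.5 and 49 CPM in WT. Neu3KO and WT overlapped, and the interaction was log2 1.42 (SE 0.08, adjusted p = 4.21e-15). Laptm5, a lysosomal protein of blood-derived and microglial cells, was called at log2 1.28 (SE 0.11), and Sqstm1, the autophagy receptor p62, was not, at 0.11 (SE 0.07, adjusted p = 0.444). The vacuolar proton pump, which acidifies lysosomes, had 1 of 17 subunits called higher, against 3.96% of all genes tested, and a median of -0.02. The subunit called was Atp6v0a2 at log2 0.45 (SE 0.09, adjusted p = 0.00188). Atp6v1a, its catalytic subunit, was at log2 0.01 (SE 0.06). Of the 19 membrane genes and regulators 10 were called higher and 1 lower with the letter as a term, and 8 higher among the E libraries.

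The upstream bases of Ctsd, Ctsa and Atp6v1a are shown because all 3 held the extended E-box TCACGTGA, the form bound by MiT/TFE factors, while only the first 2 were called.
Ctsd (chr7:142387828-142387977, minus strand): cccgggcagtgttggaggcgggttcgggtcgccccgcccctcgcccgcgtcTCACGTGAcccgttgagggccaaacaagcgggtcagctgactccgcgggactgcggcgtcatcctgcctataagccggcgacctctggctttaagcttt
Ctsa (chr2:164833623-164833772, plus strand): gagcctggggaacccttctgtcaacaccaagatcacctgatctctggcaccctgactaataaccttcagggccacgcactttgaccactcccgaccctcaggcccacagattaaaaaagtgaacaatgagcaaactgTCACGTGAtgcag
Atp6v1a (chr16:44139260-44139409, minus strand): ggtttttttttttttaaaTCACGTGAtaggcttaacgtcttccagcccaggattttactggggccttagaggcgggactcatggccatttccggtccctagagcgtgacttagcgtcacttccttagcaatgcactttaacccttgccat
Capitals mark the motif, which holds the shorter E-box CACGTG. The extended form was present in 0.906% of the genes called higher, 1.07% of those called lower, 1.58% of the protein-coding genes tested and 0.907% of all genes in the table. The E-box was present in 8.51%, 7.49%, 9.47% and 6.86% of the same sets. Neither was more frequent among the genes called higher than among the genes tested. TCATGTG, the M-box, was present in 3.99% of genes called higher, 2.67% of those called lower, 2.36% of those tested and 3.72% of all in the table.

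Reactive astrocyte genes had the highest median interaction of the lists with 10 or more tested genes, 2.03, and 17 of 23 were called higher and 0 lower. Gfap, the intermediate filament of astrocytes, had 3922, 4269.9, 4269, 3568 and 3905 CPM in DKO, against 551, 393, 504, 516 and 363 CPM in Glb1KO, 212, 205, 158, 166 and 180.5 CPM in Neu3KO and 169, 204, 220.2, 159.5 and 215 CPM in WT. DKO stood above Glb1KO and Glb1KO above the others, and against a product of 442 CPM the interaction was log2 3.17 (SE 0.18, adjusted p = 1.85e-09). Serpina3n, a secreted protease inhibitor, had 402, 359, 461, 386 and 522 CPM in DKO, against 41.2, 36.8, 38.5, 43.6 and 35 CPM in Glb1KO, 17.6, 14.6, 15.3, 14 and 12.7 CPM in Neu3KO and 12.7, 15.5, 16.2, 13.7 and 16.1 CPM in WT, for log2 3.44 (SE 0.14, adjusted p = 1.34e-14). The Neu3KO minus WT difference of Serpina3n was log2 0.01 where that of DKO minus Glb1KO was 3.45. Vim, the filament vimentin, had 251 ± 43.3 CPM in DKO, 61.5 ± 4.11 CPM in Glb1KO, 49 ± 3.24 CPM in Neu3KO and 51.9 ± 4.4 CPM in WT (SD, n = 5 each), so that the Glb1KO minus WT difference was log2 0.25 and the interaction was 2.11 (SE 0.12). Lcn2, the iron-binding lipocalin of acute inflammation, had the largest interaction named here (log2 6.72, SE 1.45, adjusted p = 0.00766), but on 1950 reads over DKO, 35 over Glb1KO, 10 over Neu3KO and 20 over WT. The call of Lcn2 was lost without WT replicate 4, and its value was between 6.18 and 7.06 over the 20 fits that left out a library. Ptx3, a secreted pentraxin, was called at log2 4.02 (SE 0.84, adjusted p = 0.0031), with 2.05, 3.19, 3.12, 3.85 and 9.87 CPM in DKO, of which replicate 5 was the highest, against means of 0.312 ± 0.0646 CPM in Glb1KO, 0.354 ± 0.298 CPM in Neu3KO and 0.414 ± 0.368 CPM in WT (SD, n = 5 each). Its call was lost on the linear CPM scale (adjusted p = 0.071) and among the E libraries (adjusted p = 0.412). The letter term left the count at 17 of 23, and among the E libraries it was 10.

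Homeostatic astrocyte genes had 6 called higher and 1 lower of 16, the lower one being Gpc5, a glypican, at log2 -0.36, named after its value was seen. Aqp4, the water channel of astrocyte endfeet, averaged 626.9 ± 42.1 CPM in DKO, 239.5 ± 27.2 CPM in Glb1KO, 215 ± 26 CPM in Neu3KO and 207 ± 19.1 CPM in WT (SD, n = 5 each). All DKO libraries were above the rest and the 3 other groups overlapped, and the interaction was log2 1.34 (SE 0.12, adjusted p = 1.59e-08). Mlc1, its neighbour at the endfeet, was called at log2 0.57 (SE 0.1), and Slc1a2, the glutamate transporter, was not called, at -0.16 (SE 0.07, adjusted p = 0.162). The summed level of the 5 astrocyte markers Aqp4, Slc1a2, Aldoc, Gja1 and Gfap ran from 8299 to 9428 CPM in DKO, 4651 to 4830.2 CPM in Glb1KO, 4119.8 to 4616 CPM in Neu3KO and 4114 to 4269 CPM in WT, a sum to which Gfap and Aqp4 belong. Its part in the results on astrocyte genes was not tested.

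The gp130 and STAT3 pathway, which drives acute-phase and reactive astrocyte genes, had 9 of 16 genes called higher and 0 lower. Osmr, the oncostatin M receptor, had 40.2, 43.9, 45.6, 44.1 and 56.9 CPM in DKO, against 8.06, 7.5, 5.95, 6.67 and 9.63 CPM in Glb1KO, 3.97, 3.13, 4.3, 4.34 and 5.09 CPM in Neu3KO and 3.21, 3.87, 2.74, 3.4 and 4.59 CPM in WT, for log2 2.4 (SE 0.2, adjusted p = 1.72e-10). Il6st, the shared receptor chain gp130, was called at a small 0.3 (SE 0.08, adjusted p = 0.0186; lost on the linear CPM scale, adjusted p = 0.0534), and the kinase gene Jak1 was not called, at -0.05 (SE 0.07). Stat3, the transcription factor, averaged 125 ± 15.1 CPM in DKO, 70.7 ± 4.83 CPM in Glb1KO, 60.7 ± 2.94 CPM in Neu3KO and 63.8 ± 3.08 CPM in WT (SD, n = 5 each), for log2 0.9 (SE 0.09, adjusted p = 1.18e-08). Downstream, Cebpd, a transcription factor of the acute phase, was called at log2 1.58 (SE 0.27) and Bcl3, a regulator of NF-kappaB, at 2.2 (SE 0.44). By value Osmr, Bcl3 and Cebpd thus stood above Stat3, and Stat3 above Il6st and Jak1, differences that were not tested. The letter term gave 7 of 16 genes called, and the E libraries 3 of 17.

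The upstream bases of Steap4, a metalloreductase, and Tgm1, a transglutaminase, both on the reactive astrocyte list, are shown because they held the STAT motif TTCNNNGAA.
Steap4 (chr5:7960322-7960471, plus strand): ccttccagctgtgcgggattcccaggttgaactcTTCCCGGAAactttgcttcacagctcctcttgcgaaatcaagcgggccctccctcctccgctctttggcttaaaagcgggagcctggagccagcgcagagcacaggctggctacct
Tgm1 (chr14:55713493-55713642, minus strand): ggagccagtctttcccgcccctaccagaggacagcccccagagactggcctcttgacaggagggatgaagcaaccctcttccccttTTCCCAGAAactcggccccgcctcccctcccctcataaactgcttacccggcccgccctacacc
Capitals mark the motif. Steap4 was called at log2 3.31 (SE 0.67, adjusted p = 0.00133) and Tgm1 at 3.2 (SE 0.6, adjusted p = 0.000453). The motif was present in 7.79% of genes called higher, 8.02% of those called lower, 7.12% of the protein-coding genes tested and 8.13% of all genes in the table, so it was about as frequent on either side. The CRE motif TGACGTCA, bound by factors such as CREB, was present in 0.906% of genes called higher, 3.74% of those called lower, 2.9% of the protein-coding genes tested and 1.77% of all genes in the table. Within the 250 upstream bases searched, the promoters of Gfap, Serpina3n, Lcn2 and Osmr in the table held none of the motifs. Bases further away were not searched.

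Genes of lipid export, iron and oxidants and of small calcium-binding proteins were also called higher. Of 21 genes of cholesterol export and lipid handling 11 were called higher and 0 lower. Abca1, the exporter of cholesterol, averaged 140.3 ± 23.2 CPM in DKO, 76.9 ± 3.94 CPM in Glb1KO, 64.2 ± 5.12 CPM in Neu3KO and 62.3 ± 4.9 CPM in WT (SD, n = 5 each), for log2 0.83 (SE 0.12, adjusted p = 2.18e-05). Npc2, which hands cholesterol out of lysosomes, was called at log2 0.84 (SE 0.11), Fabp5, a fatty acid carrier, at 0.71 (SE 0.12) and Apod, a lipid-binding lipocalin of glia, at 1.28 (SE 0.29). The letter term left 7 of the 21 called, and the E libraries 4. Of 24 genes of cholesterol synthesis 1 was called higher and 1 lower, against 3.96% and 2.88% of all genes tested. The one called higher was Lss, at log2 0.37 (SE 0.1, adjusted p = 0.0188), whose call was lost without Neu3KO replicate 5 or DKO replicate 3.

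Of 19 genes of iron handling, oxidase and antioxidant defence 10 were called higher and 0 lower. Prdx6, an antioxidant peroxiredoxin, had 443, 397, 414, 359 and 383 CPM in DKO, against 176, 190.3, 173, 172 and 178 CPM in Glb1KO, 164, 167, 170.4, 174 and 166 CPM in Neu3KO and 138, 157, 159, 164 and 167 CPM in WT, and was called outside the lists at log2 1.06 (SE 0.08, adjusted p = 4.53e-12). Ftl1, the light chain of the iron store ferritin, was called at log2 0.84 (SE 0.08), above Fth1, the heavy chain, at 0.53 (SE 0.1), though the difference between the chains was not tested. Cyba, a subunit of the phagocyte oxidase, was called at 1.75 (SE 0.2), and Hmox1, which degrades haem, at 1.54 (SE 0.2). Of 15 S100 proteins and annexins 9 were called higher and 0 lower, with S100a6 at log2 1.5 (SE 0.21), S100a1 at 1.15 (SE 0.11) and Anxa4 at 1.49 (SE 0.2). For Anxa4 the single knockouts stayed near WT, at log2 0 for Glb1KO and -0.03 for Neu3KO. With the letter as a term 10 genes of the iron list were called higher, and 8 higher and 1 lower of the S100 and annexin list, while among the E libraries 4 of 20 and 4 of 15 were called higher.

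Of 19 genes of matrix, proteoglycans and integrins 7 were called higher and 2 lower, against 3.96% and 2.88% of all genes tested. With the letter as a term 4 were called higher and 2 lower. Some of the higher calls were counted above: Cd44 and Timp1 with reactive astrocytes, Itgb2 with complement, and Lgals3 and Spp1 with disease-associated microglia. Hpse, heparanase, which cuts heparan sulfate, had 19.5, 18.8, 15.6, 18.1 and 18.1 CPM in DKO, against 1.69, 2.4, 2.83, 2.44 and 1.28 CPM in Glb1KO, 0.601, 1.73, 1.3, 0.814 and 1.46 CPM in Neu3KO and 1.21, 1.8, 1.25, 1.34 and 0.963 CPM in WT, for log2 3.23 (SE 0.32, adjusted p = 3.89e-09). On the list, Cd44, the hyaluronan receptor, was called at log2 1.86 (SE 0.18), and Ncan, the brain proteoglycan neurocan, was called lower at -0.48 (SE 0.1, adjusted p = 0.00131). The other one called lower, the glycoprotein tenascin-C gene Tnc, named after its value was seen, was at -1.07. Icam1, an adhesion protein of activated endothelium and microglia, was called at 1.72 (SE 0.27), among 3 called higher of 16 endothelial genes, whose median was -0.14. The letter term left 2 endothelial genes called, and the E libraries 0. Stra6l, a retinol transporter outside these lists, was called at log2 3.27 (adjusted p = 0.0289) on 418 reads over DKO, 36 over Glb1KO, 10 over Neu3KO and 8 over WT, and the call was lost without WT replicate 1, 2 or 4.

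**Figure D4:**
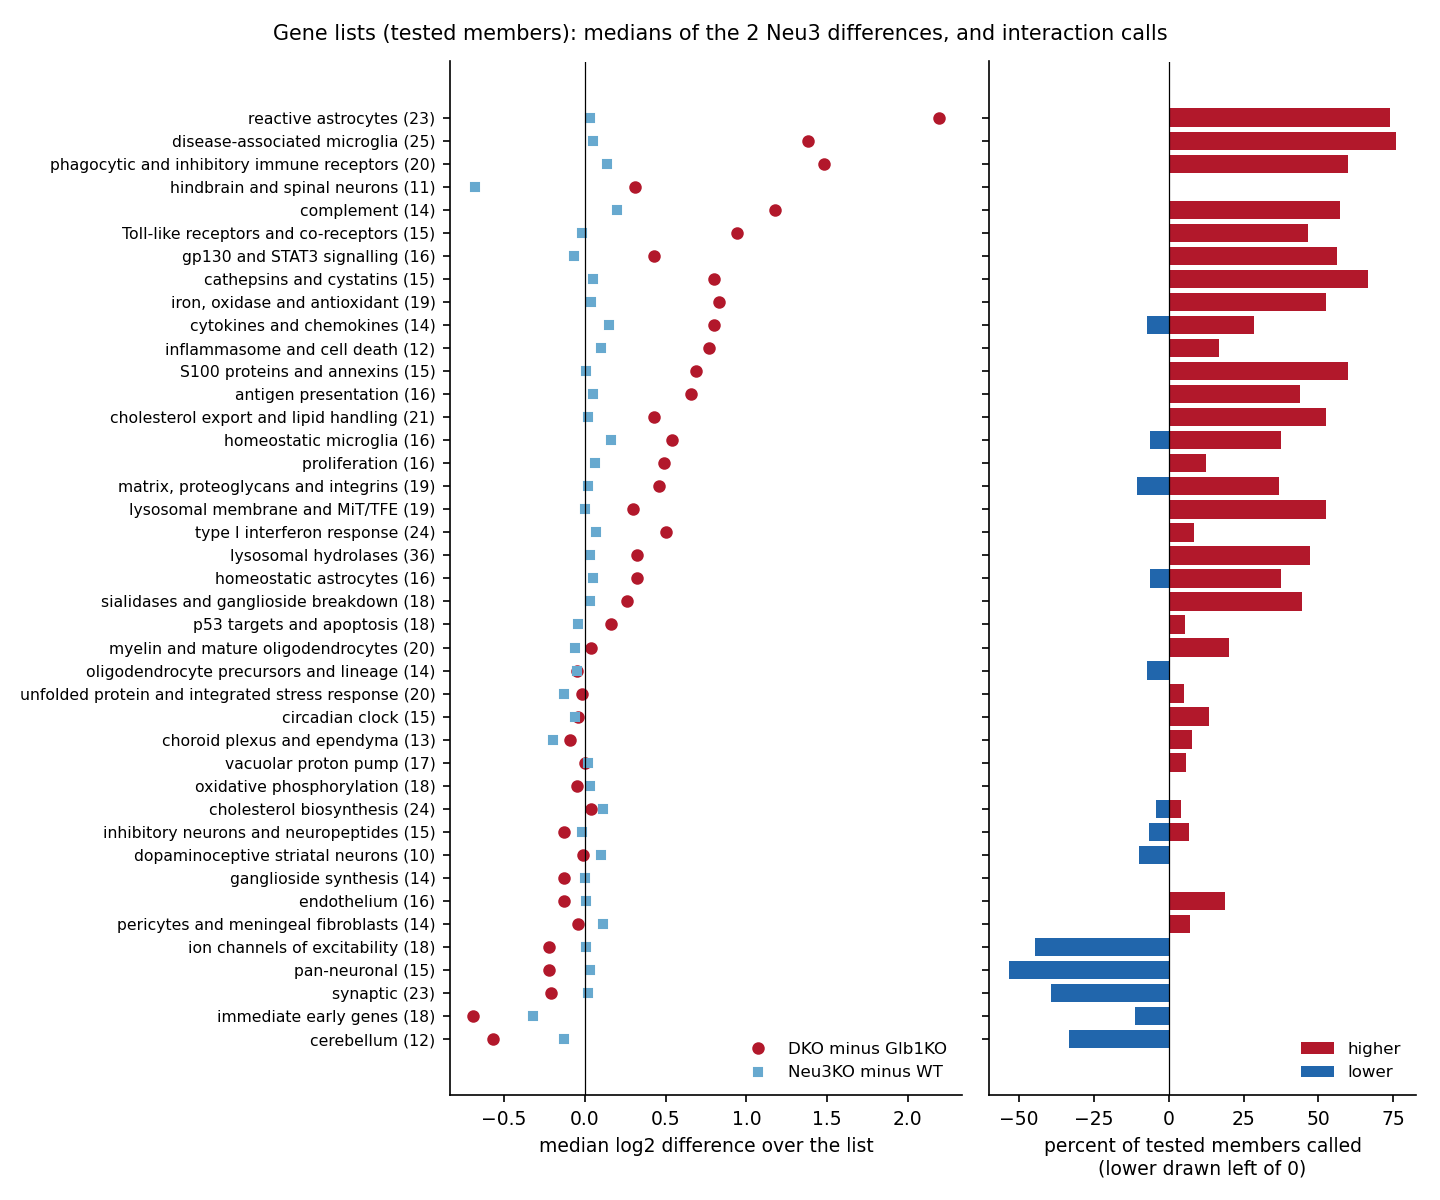
For each gene list with at least 10 tested members (number in parentheses), the left panel gives the median log2 difference of DKO minus Glb1KO (red circles) and of Neu3KO minus WT (blue squares), and the right panel the percent of members whose interaction was called higher (right of 0) or lower (left of 0). Lists are ordered by median interaction; reactive astrocytes and disease-associated microglia stand far right in DKO minus Glb1KO and near 0 in Neu3KO minus WT.

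Myelin genes were low with Glb1 lost, with a median Glb1KO minus WT log2 difference of -0.83, and a median log2 interaction of 0.06. Of 20 genes of myelin and mature oligodendrocytes, 4 were called higher and 0 lower, and in all 4 joint loss was above the product but below WT. Opalin, named after its value was seen, went the other way and was not called, at log2 -0.96 (SE 0.3, adjusted p = 0.053). Its means were 3.49 CPM in DKO, 5.86 CPM in Glb1KO, 20.1 CPM in Neu3KO and 17.6 CPM in WT. DESeq2 and the fit with the replicate number as a block each called 1 gene of the list lower. Myrf, the transcription factor that drives myelin genes, had 50.6, 59, 60.7, 55.3 and 62.6 CPM in DKO, against 46.8, 41.7, 51.1, 50.2 and 47 CPM in Glb1KO, 94.9, 83.5, 73, 92.5 and 83 CPM in Neu3KO and 104, 94.8, 108, 90.5 and 102 CPM in WT. DKO thus lay below both Neu3KO and WT and mostly above Glb1KO, and against a product of 40.5 CPM the interaction was log2 0.51 (SE 0.1, adjusted p = 0.000866). Mbp, the myelin basic protein, averaged 2002 ± 159.9 CPM in DKO, 1673 ± 111 CPM in Glb1KO, 2579 ± 216 CPM in Neu3KO and 2709 ± 162 CPM in WT (SD, n = 5 each), for log2 0.33 (SE 0.08, adjusted p = 0.0106). Aspa, which degrades N-acetylaspartate in oligodendrocytes, was called at 0.54 (adjusted p = 0.0233), lost without Glb1KO replicate 2 or 5. Cldn11, a tight junction protein of myelin, was called at 0.37 (adjusted p = 0.0478), lost in 14 of the 20 fits that left out a library and with the letter as a term (adjusted p = 0.271). The oligodendrocyte markers Mbp, Mog, Mag and Cnp summed to 2121 to 2633 CPM in DKO, 1923 to 2257 CPM in Glb1KO, 2942 to 3482 CPM in Neu3KO and 3108 to 3535 CPM in WT, so DKO overlapped Glb1KO. Mbp, itself called, belongs to this sum. Without Glb1KO replicate 2, 2 myelin genes were called, with the letter as a term 3, and among the E libraries 0 of the 20. On the linear CPM scale the calls of Mbp (adjusted p = 0.199), Aspa (adjusted p = 0.0515) and Cldn11 (adjusted p = 0.294) were lost, and that of Myrf was not.

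The same shape held 35 genes in all, and among those of smallest p were Daam2, Myrf, Slc12a2, Arhgef10 and Map7. Daam2, a modulator of Wnt signalling in glia, had 146 ± 12.1 CPM in DKO, 108 ± 9.12 CPM in Glb1KO, 135 ± 11.5 CPM in Neu3KO and 147 ± 8.66 CPM in WT (SD, n = 5 each), so joint loss overlapped WT where the product was 98.9 CPM (log2 0.56, SE 0.09, adjusted p = 7.43e-05). Slc12a2, a chloride importer, was at log2 0.4 (SE 0.08). Arhgef10, a guanine nucleotide exchange factor, was at 0.42 (SE 0.09) and Map7, a microtubule-binding protein, at 0.35 (SE 0.07). In each of these 5 genes the Glb1KO minus WT difference was negative, from -1.07 for Myrf to -0.32 for Map7.

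Lists of neuronal genes held lower calls. Of 15 pan-neuronal genes 8 were called lower and 0 higher (median log2 -0.25), of 23 synaptic genes 9 and 0 (median -0.26), and of 18 ion channels of excitability 8 and 0 (median -0.21). Of all genes tested 2.88% were called lower, and of the 2419 with a mean of 100 CPM or more 280 were. Outside these lists, and named for its small p, Kif5a, a kinesin motor of axonal transport, had 1146, 1337, 1144, 1026 and 924 CPM in DKO, against 2002, 1890.4, 1957, 1973 and 1872 CPM in Glb1KO, 3068, 3266, 2744, 2518 and 3081 CPM in Neu3KO and 2971, 2754, 2976, 2672 and 2748 CPM in WT. The order was DKO below Glb1KO and Glb1KO below the remaining 10 libraries, with no overlap, and the interaction was log2 -0.85 (SE 0.1, adjusted p = 2.76e-06). Among pan-neuronal genes, Snap25, a vesicle fusion protein, averaged 1412 ± 93.5 CPM in DKO, 1713 ± 39.4 CPM in Glb1KO, 1653 ± 132 CPM in Neu3KO and 1498 ± 87.5 CPM in WT (SD, n = 5 each), for log2 -0.42 (SE 0.07, adjusted p = 0.000234). Here each single knockout averaged above WT and DKO below it. Vsnl1, a neuronal calcium sensor, was called at log2 -0.5 (SE 0.08), Thy1, a glycoprotein of the neuronal surface, at -0.33 (SE 0.07) and Syt1, the calcium sensor of vesicles, at -0.27 (SE 0.06). Among synaptic genes, Rims1, an active zone scaffold, was called at -0.49 (SE 0.09) and Shank3, a postsynaptic scaffold, at -0.37 (SE 0.08). Camk2a, the kinase of the postsynaptic density, was not called, at -0.26 (SE 0.09, adjusted p = 0.0691). Kcnc2, a fast potassium channel, was called at -0.48 (SE 0.08) and Cacna1g, a T-type calcium channel, at -0.41 (SE 0.1). On the linear CPM scale the calls of Shank3 (adjusted p = 0.0553) and Cacna1g (adjusted p = 0.0858) were lost.

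The neuronal interactions were small in size, and few passed the test among the E libraries although their medians were alike. Without Neu3KO replicate 4, Glb1KO replicate 1, 4 or 5, or DKO replicate 3 or 4, 5 pan-neuronal genes were called lower, and without Neu3KO replicate 5 or DKO replicate 4, 5 channel genes were. With the letter as a term 7 of 15 pan-neuronal, 9 of 23 synaptic and 7 of 18 channel genes were called lower, and among the E libraries 0, 1 and 0 were, with medians of -0.25, -0.27 and -0.27. The 5 neuronal markers Snap25, Syt1, Rbfox3, Tubb3 and Nefl summed to 3162 to 3488 CPM in DKO, 3914 to 4068 CPM in Glb1KO, 3712 to 4207 CPM in Neu3KO and 3587 to 3890.0 CPM in WT. The DKO range lay below the other 3. Snap25, Syt1, Tubb3 and Nefl belong to this sum and were themselves called lower, so it is not a separate measure of neuronal content. Its part in these results was not tested. Genes of inhibitory neurons and neuropeptides had 1 called higher and 1 lower of 15, against 3.96% and 2.88% of all genes tested. Gad1, which makes GABA, was at log2 0.02 (SE 0.12). Cck, a neuropeptide, was the gene called lower, at -0.48 (adjusted p = 0.0371), and Nos1, the neuronal nitric oxide synthase, the gene called higher, at 0.28 (adjusted p = 0.0352). The calls of Cck and Nos1 were lost in 12 and 8 of the 20 fits that left out a library. That of Nos1 was also lost with the letter as a term (adjusted p = 0.0978) and on the linear CPM scale (adjusted p = 0.0637), and among the E libraries neither was called.

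Immediate early genes, which firing neurons switch on within minutes, had 2 of 18 called lower and 0 higher, Arc and Egr1. Both averaged more than 100 CPM, a level at which 280 of 2419 genes were called lower, against 2.88% of all genes tested. The count is thus near the share of genes at that level. Arc, which regulates synaptic receptors, had 119, 86.7, 106, 99.2 and 48.4 CPM in DKO, against 224, 229, 238, 214 and 136 CPM in Glb1KO, 254, 237, 219, 215 and 236 CPM in Neu3KO and 307, 256, 307, 282 and 211 CPM in WT. DKO was below all other libraries, yet the interaction was log2 -0.95 with an SE of 0.27 (adjusted p = 0.0447), and the call was lost in 16 of the 20 fits that left out a library and with the letter as a term (adjusted p = 0.189). Egr1, a transcription factor, was called at -0.6 (adjusted p = 0.0493), lost in 16 of those 20 fits. The count of 2 fell to 1 or 0 in 17 of those 20 fits. The median of the list was -0.42, and it was 0.02 with the letter as a term and -0.11 among the E libraries.

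Cerebellar genes were among the lower calls, which took 2.88% of all genes tested, and 280 of the 2419 with a mean of 100 CPM or more. Of 12 genes 4 were called lower and 0 higher: Car8 at log2 -1.23 (SE 0.35, adjusted p = 0.0436), Itpr1 at -0.59 (SE 0.11, adjusted p = 0.000556), Calb1 at -0.72 (SE 0.16, adjusted p = 0.00921) and Pcp4 at -0.73 (SE 0.19, adjusted p = 0.0253). All 4 are genes of Purkinje cells. Itpr1, the calcium release channel of the endoplasmic reticulum, and Calb1, a calcium buffer, are expressed elsewhere in brain too. Itpr1, Calb1 and Car8 averaged more than 100 CPM over the libraries. Car8, a partner of Itpr1, had 122, 43.1, 89.2, 143 and 57.7 CPM in DKO, against means of 222 ± 24.8 CPM in Glb1KO, 215 ± 46.1 CPM in Neu3KO and 223 ± 20.4 CPM in WT (SD, n = 5 each). The call was lost in 15 of the 20 fits that left out a library. With the letter as a term Itpr1 was the 1 of the 12 that was called, while Car8 was at -1.01 (adjusted p = 0.192), Calb1 at -0.55 (adjusted p = 0.1) and Pcp4 at -0.66 (adjusted p = 0.137), and the call of Pcp4 was also lost without Neu3KO replicate 2 or DKO replicate 5, each of which left 2 cerebellar genes called lower. The 4 cerebellar markers Pcp2, Cbln3, Gabra6 and Calb1 summed to 336.7 to 564 CPM in DKO, 474 to 646 CPM in Glb1KO, 415 to 561 CPM in Neu3KO and 429.8 to 546 CPM in WT. The ranges overlapped, and Calb1, a part of this sum, was itself called lower. The part of cerebellar content in these results was not tested.

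Abhd12b, a hydrolase of the alpha/beta fold, had 0.513, 0.473, 0.164, 0.747 and 0.425 CPM in DKO, against 2.22, 3.66, 2.39, 2.56 and 1.79 CPM in Glb1KO, 2.61, 1.92, 2.3, 2.44 and 2.93 CPM in Neu3KO and 2.26, 1.47, 1.37, 1.7 and 2.44 CPM in WT. All DKO libraries were below the rest, and the interaction was log2 -2.83 (SE 0.39, adjusted p = 4.17e-06). Apln, the peptide hormone apelin, had 16.3, 14.4, 13.3, 14.1 and 13.5 CPM in DKO, against 29.7, 29.4, 31.3, 28 and 29.7 CPM in Glb1KO, 36.2, 37.2, 31.5, 43.5 and 42.2 CPM in Neu3KO and 30.4, 35.1, 34.8, 35.7 and 34.2 CPM in WT. Every DKO library was below the rest, and the interaction, the one with the smallest p among the lower calls, was log2 -1.21 (SE 0.11, adjusted p = 1.94e-09). Cd6, a receptor of T cells, was at -1.73 (SE 0.45, adjusted p = 0.0125) and the 1 gene called of 5 tested genes of T, NK and B cells. Cox4i2, a subunit of cytochrome oxidase, was at -1.62 (SE 0.43, adjusted p = 0.0148), and Wnt9b, a Wnt ligand, at -1.49 (SE 0.41, adjusted p = 0.0218). On the linear CPM scale the calls of Cd6 (adjusted p = 0.0886) and Cox4i2 (adjusted p = 0.071) were lost. Tspan11, a tetraspanin, was at -1.23 (SE 0.2, adjusted p = 5.68e-05), with DKO below all other libraries. Tnnt1, a troponin, had 2.38 ± 0.58 CPM in DKO, 4.36 ± 0.481 CPM in Glb1KO, 5.08 ± 0.738 CPM in Neu3KO and 3.35 ± 0.619 CPM in WT (SD, n = 5 each), and its interaction of -1.46 (SE 0.25) included a Neu3KO level above WT (log2 0.6).

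The remaining genes among the 12 lowest held less well. Crhr2, a receptor for urocortins, was called at log2 -1.54 (adjusted p = 0.00496) and Gucy2g, a guanylyl cyclase, at -1.11 (adjusted p = 0.0166), and with the letter as a term they were at -1.32 (adjusted p = 0.0619) and -1.13 (adjusted p = 0.0552). Nrk, a kinase, was called at -1.37 (adjusted p = 0.0383) and lost in 13 of the 20 fits that left out a library. Klk8, the protease neuropsin, was called at -1.3 (adjusted p = 0.0316) and lost in 7 of them, and both were lost with the letter as a term (adjusted p = 0.144 for Nrk and 0.0536 for Klk8). Among the larger falls by smallest p, Ramp3, which modifies the calcitonin receptor, was at -1.04 (SE 0.14), Camkk2, a calcium-dependent kinase, at -0.54 (SE 0.08) and Grm3, a metabotropic glutamate receptor of neurons and astrocytes, at -0.77 (SE 0.11). In these 3 genes both single knockouts stayed within 0.2 of WT on the log2 scale.

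**Figure D5:**
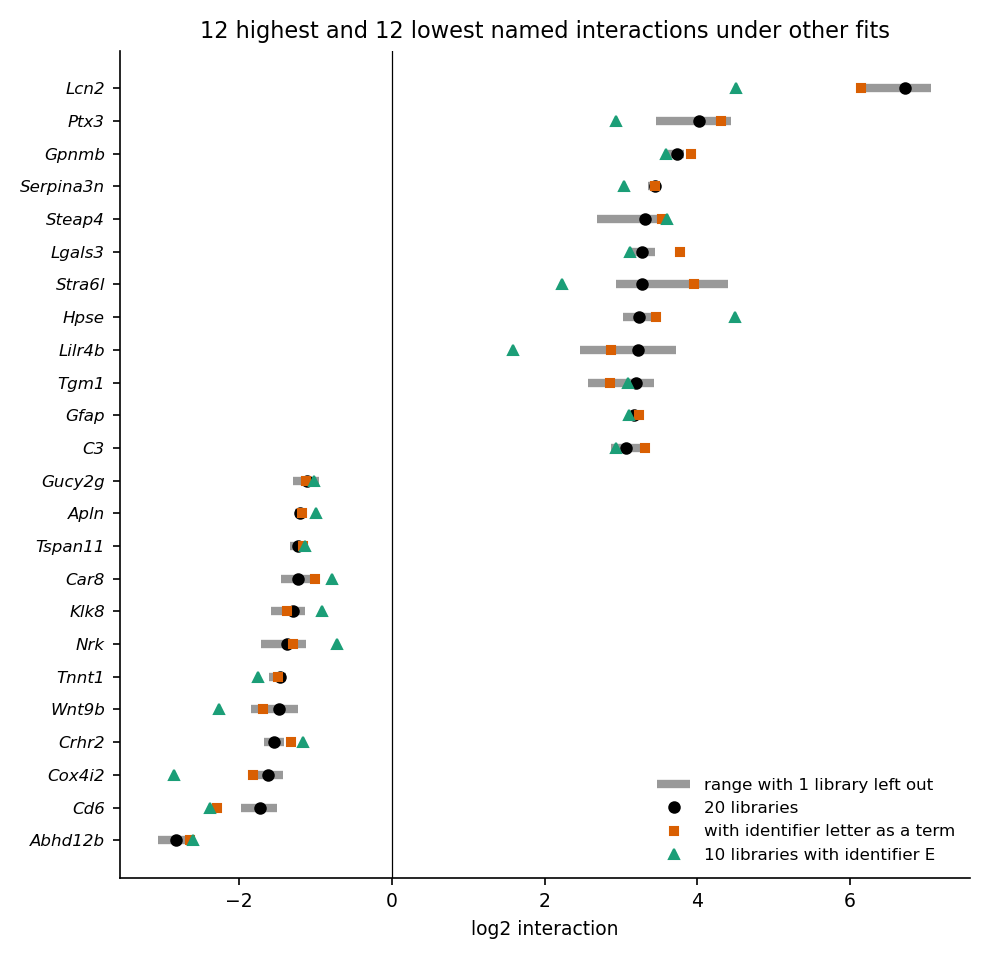
The log2 interaction of the 12 highest and 12 lowest genes named, in the fit of 20 libraries (black), with the identifier letter as a term (orange), among the 10 libraries with E (green), and over the 20 fits that left out a library (grey bar). All values stay on the side of 0 they have in the fit of 20 libraries; Lcn2 ranges from 4.51 among the E libraries to 7.06 with a library left out.

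In 28 genes joint loss was above WT or equal to it but below the product. Reps2, which takes part in receptor uptake, had 180.3, 186, 171, 137 and 158 CPM in DKO, against 219, 206, 215, 232 and 212 CPM in Glb1KO, 221, 216, 179, 189 and 249 CPM in Neu3KO and 179.5, 199, 143, 153 and 139 CPM in WT. Each single knockout averaged above WT while DKO overlapped WT, and against a product of 281 CPM the interaction was log2 -0.75 (SE 0.14, adjusted p = 0.00228). Plxdc1, a receptor of vessels, was at -0.5 (SE 0.09), Xk, a membrane protein, at -0.5 (SE 0.12) and Napb, an adaptor of membrane fusion, at -0.3 (SE 0.08). Jsrp1, a protein of the junctional membrane of muscle, was at -1.07 and Unc5d, a netrin receptor, at -0.36, and both were lost with the letter as a term (adjusted p = 0.0552 for Jsrp1 and 0.156 for Unc5d). The call of Unc5d was also lost without WT replicate 5 or Glb1KO replicate 3.

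Several lists had 2 or fewer genes called, where 3.96% of all genes tested were called higher and 2.88% lower. A count of 1 in such a list is not a result about the list. Oxidative phosphorylation had 0 of 18 genes called by edgeR and 0 by DESeq2, with 1 at an unadjusted p under 0.05 and interactions from -0.23 to 0.05. Unfolded protein and integrated stress response had 1 of 20, Atf3, a stress-induced transcription factor, at log2 1.95 (SE 0.47, adjusted p = 0.0102). Genes of p53 and apoptosis had 1 of 18 called higher, Bcl2l11, which promotes apoptosis, at 0.7 (adjusted p = 0.0306), lost in 7 of the 20 fits that left out a library and with the letter as a term (adjusted p = 0.0526). Oligodendrocyte precursors and lineage had 1 of 14 called lower, the transcription factor gene Tcf7l2 at -0.61 (adjusted p = 0.0354), lost in 9 of those 20 fits and with the letter as a term (adjusted p = 0.154). Proliferation had 2 of 16 called higher. They were Mki67, a mark of dividing cells, at 1.25 (adjusted p = 0.0315) and Mcm3, a part of the replicative helicase, at 0.81 (adjusted p = 0.0481). These calls were lost in 10 and 13 of those 20 fits and with the letter as a term (adjusted p = 0.198 for Mki67 and 0.121 for Mcm3).

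Other cell types that a hemisphere can hold were measured by marker lists. Border-associated macrophages had 0 of 9 genes called by edgeR and 0 by DESeq2, with 3 at an unadjusted p under 0.05, and their 4 markers Mrc1, Cd163, Lyve1 and Pf4 summed to 10.6 to 15.9 CPM in DKO, 7.74 to 9.94 CPM in Glb1KO, 6.24 to 9.4 CPM in Neu3KO and 5.04 to 7.56 CPM in WT. Monocytes and neutrophils had 0 of 4 called by edgeR and 0 by DESeq2, with 2 at an unadjusted p under 0.05, and their 5 markers summed to 0.918 to 4.83 CPM in DKO, 0.39 to 2.69 CPM in Glb1KO, 0.589 to 1.63 CPM in Neu3KO and 0.473 to 1.43 CPM in WT, near 0 in all groups beside the microglial sums. Hindbrain and spinal neurons had 0 of 11 called by edgeR and 0 by DESeq2, with 0 at an unadjusted p under 0.05, but a median interaction of 1.12, and their 5 markers summed to 19.9 to 39.2 CPM in DKO, 11.4 to 26.4 CPM in Glb1KO, 17.4 to 68.5 CPM in Neu3KO and 50.3 to 86.3 CPM in WT. The WT range lay above those of DKO and Glb1KO and overlapped Neu3KO, its part in these values was not tested, and the list's median was -0.13 among the E libraries. Slc6a5, a glycine transporter of hindbrain neurons, was at log2 0.94 with an SE of 0.54 (adjusted p = 0.396). Pituitary genes had 0 of 3 tested called by edgeR or DESeq2, with 0 at an unadjusted p under 0.05, while the summed level of 4 pituitary markers reached at most 29.3 CPM in DKO, 4.49 CPM in Glb1KO, 154.9 CPM in Neu3KO and 3.81 CPM in WT. Erythrocyte genes had 0 of 5 called by either tool and 0 at an unadjusted p under 0.05, and olfactory bulb genes had 0 of 8 called by either tool and 1 at an unadjusted p under 0.05. No cell type marker was at 0 in all libraries. Alleles of the donor strain can travel with a knockout in genes near it. Of the 724 genes tested within 20 Mb of Glb1 or Neu3, 37 were called, or 5.11%, against 6.84% of all genes tested. Among the 37, 26 were higher and 11 lower.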

How the data were processed

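Polyadenylated RNA of 20 mouse brain hemispheres was sequenced, and 1 table of reads per gene was used. The authors deposited raw counts for 54532 genes and, per the submitters' processing notes, used featureCounts 1.5.0-p3, HISAT2 2.0.5, fastp, the builds mm10 and GRCm38, and DESeq2 1.20.0. The roles, annotation and strand setting of these tools are not stated in the sources used here, so reads of overlapping and antisense genes cannot be told apart. The deposited FPKM values and comparisons of the authors were not used here.

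Genes passing filterByExpr (18336, with 36196 dropped) were scaled by TMM and fitted over all 20 libraries with a mean per genotype, by edgeR 4.0.16 in R 4.3.3 with the robust quasi-likelihood F test and Benjamini-Hochberg adjustment over all genes tested. Every adjusted p printed is from that test, at a threshold of 0.05, unless another fit is named. A mean per group makes the interaction a difference of differences, and counting noise of all 4 groups enters its SE. CPM values are TMM-scaled shares of a library and do not measure absolute amounts. Levels of Glb1 and Neu3 were compared by an exact two-sided permutation test of 5 against 5.

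The protein-coding genes named, none of them Xist, on chromosome Y or without a proper symbol, passed the threshold, averaged 1 CPM or more over the libraries, and lay outside 20 Mb of Glb1 and Neu3. They were the 12 highest and 12 lowest interactions and the 6 of smallest p in each of the 4 shapes. To them were added, called or not, up to 4 genes of smallest p and up to 2 of highest level from each gene list. Some genes that this rule or a marker list picks are not reported here, and sums of markers leave them out. Members and lists were chosen with earlier results of these data known. Lists are described by counts and medians and were not tested as sets.

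Library pairs within a genotype differed by more than sampling noise, with a chi-square of 3.44 to 29.8 per gene over 40 pairs. Alternatives were other scalings (RLE, upper quartile), no filter and a filter at 1 CPM, DESeq2 1.42.0, limma 3.58.1, the linear scale, a replicate block, a 1.5-fold minimum, omission of genes near the targets, omission of each library, the identifier letter as a term, and the E libraries alone.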

Additional observations from a re-analysis of the deposited data

Results flagged for a closer look

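The effect of Neu3 loss differed between brains with and without Glb1 in 1255 genes by the test of the difference itself, the contrast described above. Beside it, 35 of 592 groups of 5 libraries, taken over 148 genes, held a library set apart from the other 4, or 5.91%. The measure was a gap to the nearest library above 0.71 of the group's range, and chance gives about 1 in 20. WT replicate 1 was the library set apart in 9 of the 35. Set above the other DKO libraries were Ptx3 in replicate 5 (9.874 CPM, next 3.852 CPM), Lilr4b in replicate 5 (15.82 CPM, next 9.025 CPM) and Ramp3 in replicate 1 (8.943 CPM, next 7.778 CPM). Also above the rest of DKO were Mef2c in replicate 2 (418.6 CPM, next 378.2 CPM), H2-D1 in replicate 1 (175.0 CPM, next 146.7 CPM) and Stat3 in replicate 5 (152.0 CPM, next 120.6 CPM). Further above in DKO were Nos1 in replicate 4 (159.5 CPM, next 138.5 CPM) and Bhlhe41 in replicate 3 (73.94 CPM, next 66.41 CPM). Set below the other DKO libraries was Cd84 in replicate 2 (19.11 CPM, next 22.4 CPM). Set above the other Glb1KO libraries were C3 in replicate 1 (3.913 CPM, next 2.487 CPM), Man2b1 in replicate 4 (75.73 CPM, next 68.85 CPM) and Hmox1 in replicate 3 (10.73 CPM, next 8.001 CPM). Set below the other Glb1KO libraries were Gpnmb in replicate 5 (25.52 CPM, next 39.53 CPM), Map7 in replicate 5 (83.02 CPM, next 87.07 CPM) and Ccl2 in replicate 1 (0 CPM, next 0.1199 CPM). Also below the rest of Glb1KO were Arc in replicate 5 (136.4 CPM, next 214.4 CPM) and Rims1 in replicate 1 (211.7 CPM, next 220.2 CPM). Set above the other Neu3KO libraries were Plxdc1 in replicate 2 (45.39 CPM, next 40.55 CPM), Ccl4 in replicate 3 (0.05896 CPM, next 0 CPM) and Bst2 in replicate 2 (4.135 CPM, next 2.405 CPM). Also above the rest of Neu3KO was Il6st in replicate 4 (146.3 CPM, next 128.3 CPM). Set below the other Neu3KO libraries were Nlrc5 in replicate 4 (0.6782 CPM, next 1.297 CPM) and Npc2 in replicate 5 (43.95 CPM, next 54.19 CPM). Set above the other WT libraries were Fcgr2b in replicate 5 (3.568 CPM, next 2.371 CPM), Ncan in replicate 1 (238.2 CPM, next 196.8 CPM) and Gad1 in replicate 5 (545.8 CPM, next 505.6 CPM). Also above the rest of WT were Pycard in replicate 1 (4.318 CPM, next 2.614 CPM) and Bcl2l11 in replicate 1 (9.953 CPM, next 7.76 CPM). Set below the other WT libraries were Apln in replicate 1 (30.38 CPM, next 34.16 CPM), Apoe in replicate 1 (942.4 CPM, next 1178.1 CPM) and Bst2 in replicate 1 (1.738 CPM, next 2.832 CPM). Also below the rest of WT were Ctsd in replicate 1 (136.1 CPM, next 176.3 CPM), Bcl3 in replicate 5 (0.2266 CPM, next 0.6534 CPM) and Cldn11 in replicate 1 (116.7 CPM, next 147.4 CPM). Further below in WT was Fth1 in replicate 1 (1153.5 CPM, next 1443.2 CPM). What set these libraries apart was not tested.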

How the results depend on the processing

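The count of 1255 calls was 1249 with RLE scaling, 1264 with upper-quartile scaling, 1473 without a filter on low counts, 1464 with DESeq2 and 1289 with limma, and the calls kept their sign in each. On the linear CPM scale 1127 genes were called, of which 339 were lower against 528 on the log2 scale. A minimum interaction of 1.5-fold left 132 genes, with 126 higher and 6 lower. Among the E libraries 183 genes were called, with 158 higher and 25 lower; that fit has fewer samples, 3 of the 1255 calls had the opposite sign in it, and the median over all genes was 0.0181. With each library left out in turn, 984 to 1321 genes were called. Without genes near Glb1 or Neu3, 1219 were called.

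The replicate numbers did not pair the libraries: same-numbered libraries of different genotypes correlated at -0.129 to 0.0646 in their deviations from the genotype means, and 2 of 20 correlated best with their own number. With the replicate number as a block 1136 genes were called, of which 1101 were among the 1255, and of 148 genes named 5 lost their call (Car8, Mef2c, Cldn11, Mki67 and Mcm3). Of the same 148 genes, 23 lost their call with the letter as a term, 81 among the E libraries and 83 with the 1.5-fold minimum, and none changed side as a called gene. On the linear CPM scale 21 of them lost it: Ccl2, Ccl4, Ptx3, Shank3, Cacna1g, Mbp, Aspa, Cldn11, Napb, Cd6, Cox4i2, Gucy2g, Il6st, Mki67, Klk8, Pycard, Nos1, Adcy5, Mef2c, Arc and Egr1. Genes under 1 CPM had a median SE of 0.608, so smaller interactions of such genes were not detectable at this depth.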

Other observations

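Smaller groups of genes not described above also held calls. Of 12 genes of inflammasomes and cell death 2 were called higher, against 3.96% of all genes tested. Naip2, which senses bacterial proteins, averaged 5.44 ± 1.01 CPM in DKO, 1.8 ± 0.401 CPM in Glb1KO, 1.24 ± 0.337 CPM in Neu3KO and 1.13 ± 0.232 CPM in WT (SD, n = 5 each), for log2 1.49 (SE 0.33, adjusted p = 0.00373). Pycard, the inflammasome adaptor ASC, was called at 1.14 (adjusted p = 0.0326), lost in 7 of the 20 fits that left out a library and with the letter as a term (adjusted p = 0.0566). Vcam1, an adhesion protein of vessels, averaged 36.9 ± 3.19 CPM in DKO, 24.7 ± 3.07 CPM in Glb1KO, 25.3 ± 3.58 CPM in Neu3KO and 24.5 ± 3.69 CPM in WT (SD, n = 5 each), for log2 0.53 (SE 0.14, adjusted p = 0.0184). It stood above the other groups in DKO alone. Vwf, the von Willebrand factor of endothelium, was called at 0.45 (adjusted p = 0.0396), lost in 13 of the 20 fits and with the letter as a term (adjusted p = 0.0563). The 4 endothelial markers Cldn5, Pecam1, Flt1 and Slco1a4 summed to 145 to 163 CPM in DKO, 143 to 178 CPM in Glb1KO, 142 to 162 CPM in Neu3KO and 128 to 169.8 CPM in WT, so these ranges overlapped. Pdgfrb, the receptor of pericytes, was called at 0.44 (adjusted p = 0.0296), lost in 8 of the 20 fits.

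Of 15 circadian clock genes 2 were called higher and 0 lower, against 3.96% and 2.88% of all genes tested. Bhlhe41, a repressor of the clock, averaged 67 ± 3.94 CPM in DKO, 50.5 ± 3.62 CPM in Glb1KO, 41.3 ± 3.34 CPM in Neu3KO and 44.3 ± 2.86 CPM in WT (SD, n = 5 each), for log2 0.51 (SE 0.09, adjusted p = 0.000389). Cry1, a core repressor, was called at 0.45 (adjusted p = 0.0182), and the call was lost without DKO replicate 3. Foxj1, which drives motile cilia of ependyma, was the 1 gene called of 13 of choroid plexus and ependyma, at 0.6 (adjusted p = 0.0181), and with the letter as a term it was at 0.46 (adjusted p = 0.144). Adcy5, the adenylyl cyclase of striatal neurons, was the 1 gene called lower of 10 of that list, at -0.27 (adjusted p = 0.0354), lost in 11 of the 20 fits.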
